A study of Mus musculus with 2 samples.

Results

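The miRNAs miR-223, miR-142 and miR-511, which mark cells of the myeloid and wider blood lineage, were followed in mouse marrow cultures through both arms of each hairpin. The 6 members were chosen by name (mmu-miR-223-3p and mmu-miR-223-5p, mmu-miR-142-3p and mmu-miR-142-5p, mmu-miR-511-3p and mmu-miR-511-5p, written below without the prefix for mouse) from the 1080 miRNA names on the array, and all 6 were present on it. Bone marrow cells of C57BL/6 mice were grown for 4 days in medium with 5% serum into what the labels call myeloid-derived suppressor cells, a term for immature myeloid cells with the capacity to hold back T cell responses. The GM-CSF only culture received 40 ng/ml of GM-CSF, which drives growth of granulocytes and macrophages, and the GM-CSF plus IL-6 culture received the same dose of GM-CSF with 40 ng/ml of IL-6, a cytokine of inflammation that signals through STAT3. RNA of each culture (0.2 ug) was read on 1 Agilent miRNA array in a single colour, so no comparison between the cultures carries a p-value. The cultures were whole, with no sort or gate named in the labels, and GM-CSF was present in both, so neither is untreated marrow.

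A miRNA hairpin is cut into a duplex whose arms, named 5p and 3p, can both guide silencing of target mRNAs through their seed, the bases near the 5′ end that pair with the target. miR-223 is transcribed under the myeloid factors PU.1 and C/EBP and is among the most abundant miRNAs of granulocytes, where in the mouse it restrains neutrophil production and activation. miR-142 is expressed across blood cells and both of its arms are functional. miR-511 lies in an intron of Mrc1, the gene of the macrophage mannose receptor, and is known from macrophages and dendritic cells.

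The mature sequences of 5 of the 6 members were found in the RefSeq table (GRCm38.p6), and are shown because each carries a seed of its own, bases 2 to 8, in capitals. miR-511-5p had no entry. The array's miR-142 names are the older names of miR-142a.
miR-223-3p: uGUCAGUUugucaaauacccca
miR-223-5p: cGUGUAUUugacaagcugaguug
miR-142-3p: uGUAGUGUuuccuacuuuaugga
miR-142-5p: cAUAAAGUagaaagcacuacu
miR-511-3p: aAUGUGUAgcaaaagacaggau
The 5 seeds were all different, and 0 of the other mature sequences in the table of 1738 shared any of them. They were 21 to 23 bases long, and any pair of them was at least 10 single-base edits apart. Against all other mouse mature sequences the nearest to miR-142-5p was miR-3964, at 4 edits, followed at 7 edits by miR-9b-5p for miR-142-3p, and neither of these neighbours is a name on the array. The other 3 members were 8 or 9 edits from their nearest neighbour. Bases G and C made up 33.3% of miR-142-5p and 34.8% of miR-142-3p, against 40.9% of miR-223-3p, 43.5% of miR-223-5p and 36.4% of miR-511-3p. The probe sequences were not used here.

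The hairpins are shown with the mature arms that the table lists in capitals, to place the named arms within them, and that of Mir511 has its 3p arm alone in capitals.
Mir223: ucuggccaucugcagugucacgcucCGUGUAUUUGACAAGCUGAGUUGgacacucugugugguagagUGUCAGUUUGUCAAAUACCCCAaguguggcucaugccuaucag
Mir142: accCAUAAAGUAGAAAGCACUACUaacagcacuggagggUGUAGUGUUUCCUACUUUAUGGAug
Mir511: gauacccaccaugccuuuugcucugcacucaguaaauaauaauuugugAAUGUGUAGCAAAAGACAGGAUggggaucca
In GRCm38.p6 the Mir223 hairpin lies on the plus strand at chrX:96242817-96242926, within the long noncoding RNA gene F630028O10Rik. The Mir142 hairpin lies on the plus strand at chr11:87756864-87756927, where the table also lists Mir142b on the opposite strand. The Mir511 hairpin lies on the plus strand at chr2:14261003-14261081, within Mrc1.

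Of the 6 members, 3 were detected in both cultures and 3 in neither. miR-223-3p and both arms of miR-142 were detected with all 40 of their spots well above background on each array. miR-223-5p and both arms of miR-511 had 0 of 40 such spots in either culture. The calls of the 6 members were thus the same with and without IL-6. For comparison, 292 of the 1080 names were detected on both arrays, 308 with IL-6 and 301 without it. Most names on the array therefore also had the same call in both cultures, and this does not set the members apart. Detection is the scanner software's call, and in both files a name was called where at least 1 of its probes had a total signal above 3 times its deposited error.

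The level of miR-223-3p, the granulocyte miRNA, was a summed probe signal of 6239 ± 47.9 with IL-6 and 6807 ± 44.4 without it. Here and below the summed signal is in arbitrary units with no scaling between arrays, and the error is the standard error over replicate spots within the array, which says nothing of the spread between cultures. miR-223-3p was bright on both arrays, at rank 5 of the 308 names detected with IL-6 and rank 4 of the 301 detected without it. Its unscaled signal was the lower one with IL-6, by a log2 difference of -0.126. The unscaled median of the names detected on both arrays was also lower with IL-6, at -0.06. Whether miR-223-3p differed between the cultures was not tested. Had it differed, fewer myeloid cells in a culture and less of the miRNA per cell could not be told apart in RNA of whole cultures.

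miR-142-3p, the arm of the blood-cell miRNA that begins with a seed of GUAGUGU, had a summed signal of 1398 ± 16.0 with IL-6 and 1460 ± 8.68 without it. It ranked 12 among detected names with IL-6 and 13 without. For miR-142-5p, the other arm, the summed signal was 263 ± 2.65 with IL-6 and 268 ± 1.92 without it, at ranks 51 and 49. Both arms were thus close between the cultures, with unscaled log2 differences of -0.062 and -0.030. Signals of different names depend on their probes as well as on abundance, so the ranks serve only to place the same name on the 2 arrays.

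The direction of these small differences depends on how the arrays are scaled. Without scaling all 3 detected members were lower with IL-6, with unscaled ratios of 0.917 for miR-223-3p, 0.958 for miR-142-3p and 0.979 for miR-142-5p. After division by each array's 75th percentile over the 292 names detected on both arrays (160 with IL-6 and 182 without), all 3 were higher, with log2 ratios of 0.058, 0.121 and 0.153. That scaling put the median of the 292 names at a log2 ratio of 0.12, and the unscaled signals put it at -0.06. From here on the median is subtracted, and a relative log2 ratio (with IL-6 over without it) is a value on that scale, which no uniform scaling can change.

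On the relative scale miR-223-3p was at -0.061 ± 0.015 (spot standard error), the 3p arm of miR-142 at 0.002 ± 0.019 and its 5p arm at 0.034 ± 0.018. As folds, miR-223-3p stood at 0.958 and miR-142-5p at 1.02. The deposited error model of the scanner software, under which the totals of these probes were at least 9.88 times their errors, gives log2 errors of 0.162, 0.151 and 0.146 for the same ratios. Each member lay within that error of the median of all names. Of the 292 names, 81 (27.7%) were closer to the median than miR-223-3p, 47 (16.1%) were closer than miR-142-5p and 4 (1.37%) were closer than miR-142-3p. The interquartile range of all names ran from -0.09 to 0.16, and all 3 members lay inside it.

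By the fixed rule of size, 0 of the 3 detected members were at least 2-fold apart between the cultures, beside 1.37% of the 292 names on the same scaled values and 1.03% relative to the median. At 1.5-fold the count was again 0 of 3, beside 5.48% on scaled values and 3.42% relative to the median. All of the names past either size were higher with IL-6, and 0.0% were lower. With 3 members and so few names called, the count of 0 does not set the members apart from other names.

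**Figure D1:**
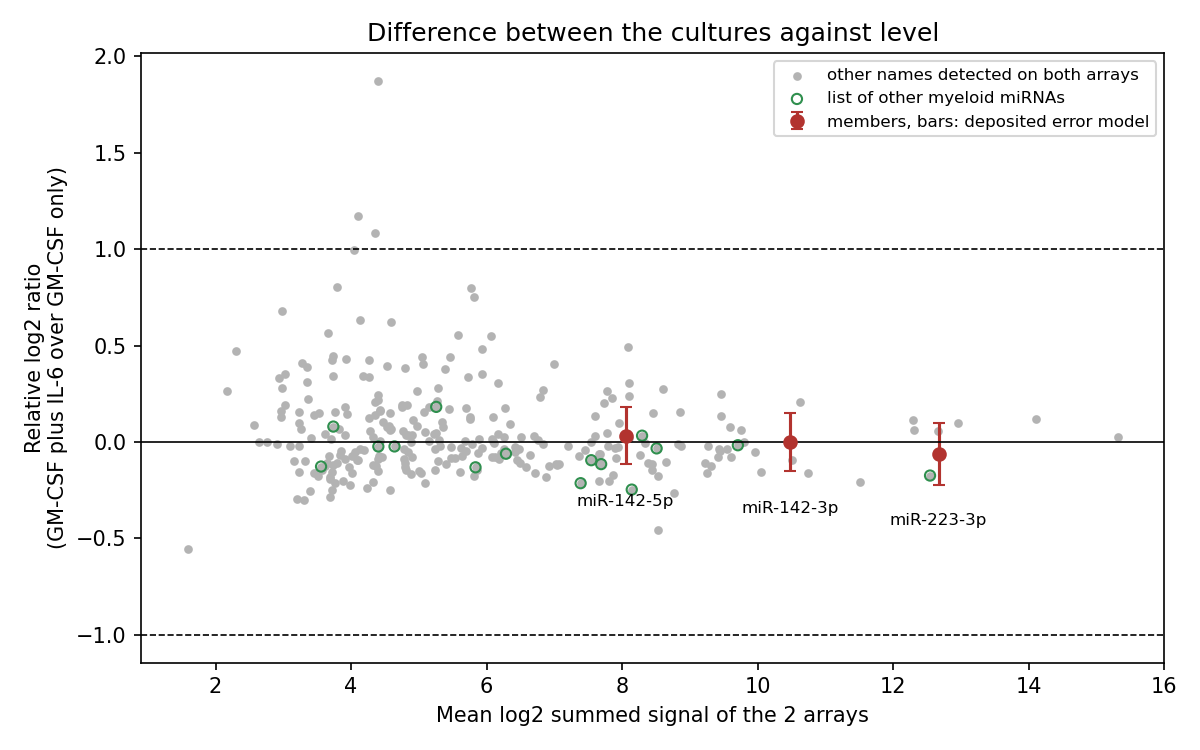
Relative log2 ratio of the culture with IL-6 over the culture without it (vertical axis) against the mean log2 summed signal of the 2 arrays (horizontal axis) for the 292 names detected on both arrays, 1 array per culture. Grey points are other names, green circles the list of other myeloid miRNAs and red points the 3 detected members with bars of plus and minus the deposited error model, and dashed lines mark 2-fold. All 3 bars cross 0.

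Each of the detected names was measured by 2 probes of 20 spots per array. For miR-223-3p the lower-numbered probe totalled 1514 with IL-6 and 1701 without it, and the higher-numbered probe 4724 and 5106. Both probes lay below the median of all names, at relative log2 ratios of -0.104 ± 0.013 and -0.048 ± 0.019 (spot standard errors). The probes differed from each other by -0.056 ± 0.023, more than 2 of the spot standard errors. The spots of the lower-numbered probe ran from 3112 to 4211 with a median of 3958 on the array with IL-6, and from 3661 to 4616 with a median of 4362 on the other. With flagged spots included the arrays overlapped. Without the spots that carried an outlier flag on their own array the unscaled signals did not. They ran from 3660 to 4211 with IL-6 and from 4295 to 4616 without it. The median of the names detected on both arrays was also lower with IL-6, at an unscaled log2 ratio of -0.06, though single names were higher. The gap between these spots therefore need not hold on the relative scale. The spots of the higher-numbered probe ran from 10500 to 13110 (median 12440) with IL-6 and from 12340 to 13930 (median 13340) without it, and overlapped with and without the flagged spots.

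The probes of miR-142 gave a smaller spread around the median of all names. For miR-142-3p the totals were 912.7 with IL-6 and 960.4 without it for the lower-numbered probe, and 485.4 and 499.3 for the higher-numbered one. Their relative log2 ratios were -0.009 ± 0.026 and 0.023 ± 0.022, on opposite sides of the median. For miR-142-5p the totals were 134.3 and 138.4 for the lower-numbered probe, and 128.4 and 129.9 for the higher-numbered one. Their relative log2 ratios of 0.021 ± 0.013 and 0.047 ± 0.034 were both above the median. Within miR-142 the probes of a name differed by less than their spot standard error, by -0.032 ± 0.034 for the 3p arm and -0.026 ± 0.036 for the 5p arm.

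**Figure D2:**
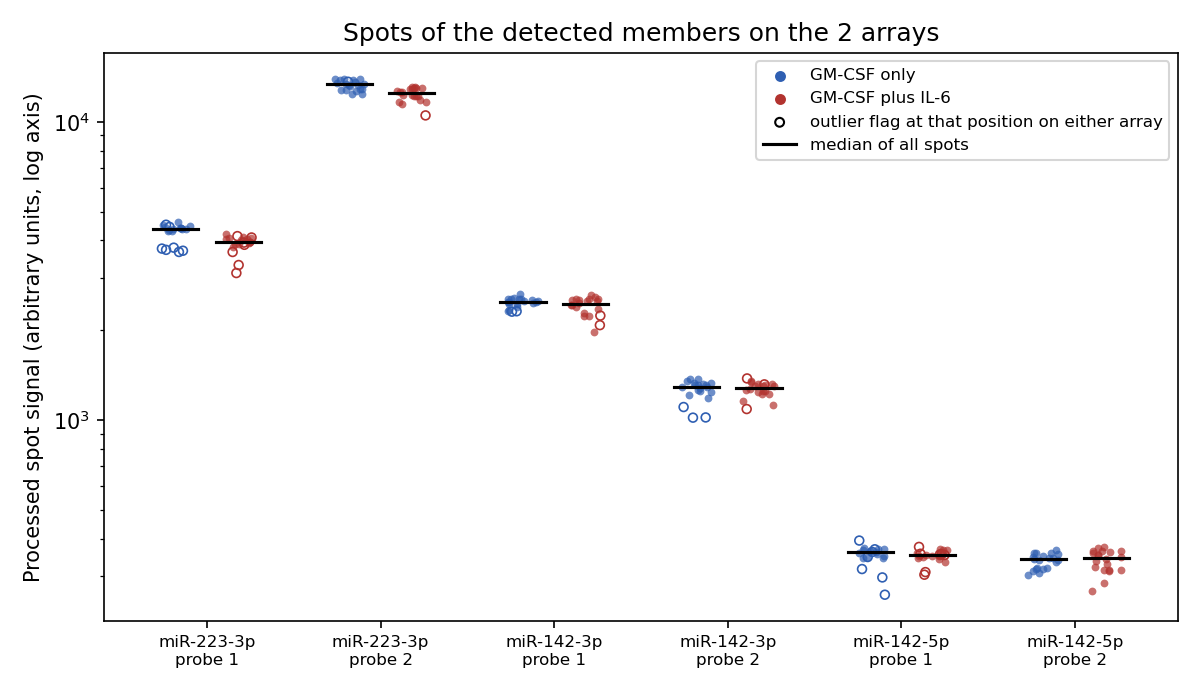
Processed spot signal (vertical axis, log scale, arbitrary units, not scaled between arrays) of every spot of the 2 probes of each detected member, with GM-CSF only in blue, GM-CSF plus IL-6 in red, medians as bars, and open circles where the position had an outlier flag on either array. Probe 1 is the lower-numbered one. With flagged spots included the spots of each probe overlap between the arrays. Those of probe 1 of miR-223-3p do not overlap without them on this unscaled axis, which need not hold on the relative scale. For both probes of miR-223-3p the unscaled median lies lower with IL-6 (3958 against 4362, and 12440 against 13340).

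Both arrays carry the same probe at the same row and column, so spots could be set side by side by position. Among 32 positions of miR-223-3p without an outlier flag on either array, the processed spot signal was the lower one with IL-6 at 31. Relative to the median of all names, 28 of the 32 lay below 0, between -0.15 and 0.06 with a median of -0.06. miR-142-3p lay below 0 at 11 of 35 positions (-0.27 to 0.15, median 0.02) and miR-142-5p at 13 of 33 (-0.38 to 0.31, median 0.03). Spots of 1 array share its RNA, so these counts describe how evenly the array read the difference and not whether another culture would show it.

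The coefficient of variation over unflagged spots of a probe was between 1.96% and 4.28% for miR-223-3p, between 3.18% and 7.34% for miR-142-3p and between 2.63% and 8.74% for miR-142-5p. Outlier flags touched 3 spots of miR-223-3p with IL-6 and 5 without it, all 5 on the lower-numbered probe. There were 1 and 5 flagged spots for miR-142-3p, and 3 and 4 for miR-142-5p. Of all spots of the members, 0 were saturated, so the bright signal of miR-223-3p was not cut off at the top of the scanner's range.

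Differences between members on the same pair of arrays do not depend on a uniform scaling. miR-223-3p was -0.064 ± 0.024 against miR-142-3p on the log2 scale, and -0.095 ± 0.023 against miR-142-5p. The arms of miR-142 differed in their ratio by -0.032 ± 0.026 (3p minus 5p). Under the processing alternatives miR-223-3p stayed below miR-142-3p in 14 of 14, and below miR-142-5p in 13 of 14. The exception was quantile normalization, at 0.059. Some of the alternatives shift all members alike and so repeat these differences by construction, apart from rounding. They are no scaling, the percentile over all names, the authors' table, stricter detection and mouse names alone as the reference. The counts are therefore not counts of independent checks.

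The undetected arm of miR-223 sat at background. Its summed signal over 3 probes was -0.41 with IL-6 and 0.29 without it, with deposited errors of 1.92 and 1.92, after background subtraction that can leave values under 0. None of its 3 probes was above 0.37 times its error on either array, against the 3 times that detection required. It lay at percentile 50.6 of the 772 names undetected with IL-6 and at percentile 59.6 of the 779 undetected without it. Within the hairpin of Mir223, then, the 3p arm was detected and the 5p arm was not, in both cultures.

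miR-511-3p, from the macrophage-linked hairpin, was also close to background. The summed signal of its 2 probes was 1.01 with IL-6 and 1.36 without it, with deposited errors of 2.36 and 2.35. Its brighter probe stood at 0.91 and 0.76 times its error. The percentiles among undetected names were 76.0 and 76.1, almost the same in both cultures.

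miR-511-5p had the highest summed signal of the undetected members on both arrays. The summed signal of its 4 probes was 4.84 with IL-6, with a deposited error of 1.69, and 1.83 without it, with an error of 1.67. These values lay at percentile 94.2 of the undetected names with IL-6 and at percentile 81.4 without it. Of its 40 spots, 27 of 40 with IL-6 and 13 of 40 without it were called positive and significant against background. The share was 17.1% with IL-6 and 18.6% without it over all spots of undetected names. Over the spots of negative controls it was 27.8% and 32.2%. As a share, the 27 of 40 lay above both values with IL-6. The 13 of 40 lay close to that of the negative controls without it. The probe totals with IL-6 were 0.60, 1.40, 1.77 and 1.95 times their errors, and without it 0.73, 0.26, 0.12 and 1.08 times. Of the 4 probes, 3 were higher with IL-6 and the remaining one was not. All stayed below the detection limit, so no fold is given, and the difference between the 2 sums was not tested.

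**Figure D3:**
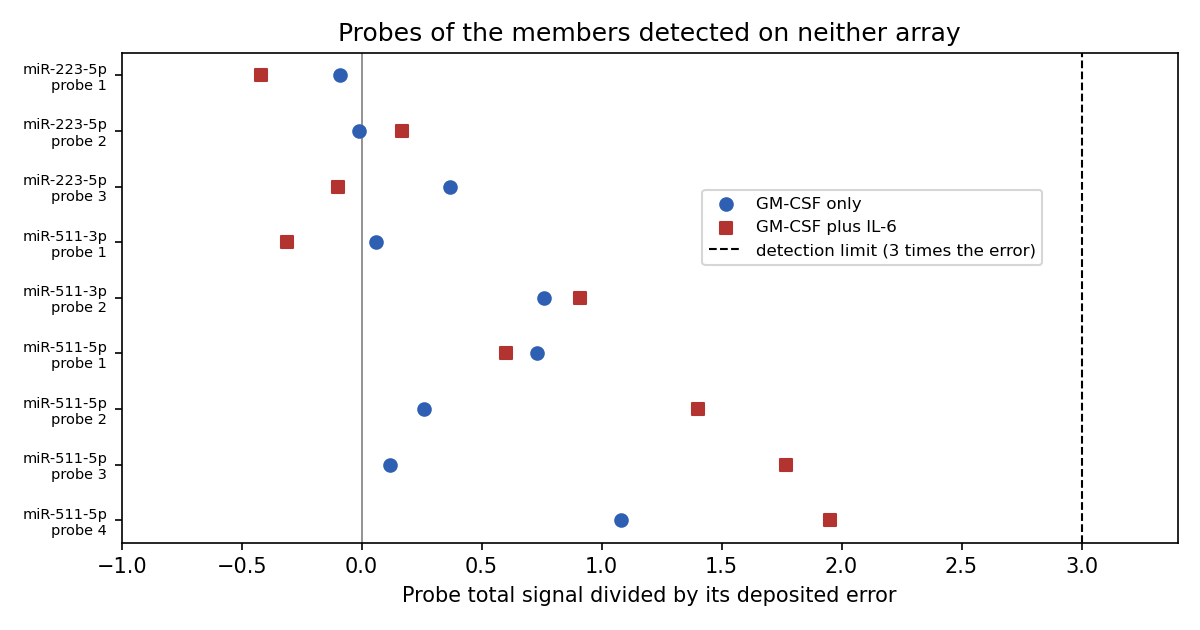
Total signal of each probe divided by its deposited error (horizontal axis) for the 9 probes of miR-223-5p, miR-511-3p and miR-511-5p, with GM-CSF only as blue circles and GM-CSF plus IL-6 as red squares. The dashed line marks detection at 3, and the highest point, a probe of miR-511-5p with IL-6, stands at 1.95.

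The negative controls place these signals. Their 7 probes had mean spot signals from -0.17 to 4.37 with IL-6 and from 0.89 to 4.80 without it, and none exceeded 1.10 times its error in total. With IL-6, 3 of the 4 miR-511-5p probes stood above that value, at the 1.40, 1.77 and 1.95 given above, and without IL-6 none did. The share of the 2026 probes of undetected names with IL-6 above that value is not given here. The count therefore does not set miR-511-5p apart from other undetected names, which reached a summed signal of 9.78 with IL-6. The lowest summed signal of any detected name was 2.43 with IL-6 and 3.73 without it. The 4.84 of miR-511-5p lay above the first of these and was still undetected.

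Other miRNAs linked to myeloid cells were read beside the members. Of 20 listed, 19 are names on the array. In both cultures 15 of these were detected, and in neither the remaining 4. Their median relative log2 ratio was -0.06, with 12 below and 3 above the median of all names, which is 0 by construction, and 0 of the 15 were 2-fold apart. The lowest was miR-155-5p, a miRNA that rises when macrophages are activated, at -0.25 ± 0.02 (254 with IL-6 and 315 without), and the highest was miR-338-5p at 0.18 ± 0.05 (39.8 and 36.7). miR-34a-5p, whose gene p53 activates, stood at -0.21 ± 0.03, and miR-21-5p, widely expressed and bright in myeloid cells, at -0.17 ± 0.02. These are spot standard errors. The deposited error model gives larger log2 errors, of 0.17 for miR-155-5p, miR-34a-5p and miR-21-5p and 0.14 for miR-338-5p.

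The remaining detected names of that list lay between. miR-342-3p, whose gene is activated by PU.1, had 194 with IL-6 and 220 without (-0.11), and its other arm miR-342-5p had 13.4 and 13.3 (0.08). miR-322-5p, a mouse relative of human miR-424, stood at -0.06 and its cluster partner miR-503-5p at -0.13. miR-146a-5p, which dampens NF-kB by targeting its upstream adaptors, was at -0.13 and miR-652-3p at -0.09. miR-20a-5p and miR-17-5p, from the cluster that promotes growth of blood progenitors, were both at -0.02, as was miR-338-3p. miR-29b-3p was at 0.03 and miR-27a-3p at -0.03. The 4 names detected on neither array were miR-322-3p, miR-503-3p, miR-125b-5p and miR-130a-3p.

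The labelled cell type was checked against markers. The myeloid marker list, chosen with earlier results of these data known, held miR-223-3p and both arms of miR-142. All were detected in both cultures, but miR-142 is expressed across blood cells and is not specific to the myeloid lineage. The macrophage-linked miR-511 was not on that list, and both of its arms were detected in neither culture. Of 5 stromal names, 0 were detected. Of 3 erythroid names on the array 1 was detected, miR-451 (8.10 with IL-6 and 10.4 without), and the list summed to 6.35 and 8.54. The lymphoid miR-150-5p had 54.2 and 62.6, and of 2 megakaryocyte and endothelial names 1 was detected, miR-126-3p (11.0 and 12.8), with list sums of 11.4 and 14.4. Of 5 epithelial names 2 were detected on both arrays and 1 without IL-6 alone, with list sums of 31.4 and 36.1 and miR-200c-3p the brightest (12.4 and 15.0). Of 3 muscle names 1 was detected, miR-206-3p (67.8 and 55.5), with list sums of 68.7 and 57.7. The relative log2 ratio was -0.30 for miR-451, -0.14 for miR-150-5p and -0.15 for miR-126-3p, with errors given by the scanner software of 0.554, 0.182 and 0.433 (log2). Their part in the members' values was not tested.

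Names with the most similar levels on the 2 arrays were found by distance over the scaled log2 levels, which covers only 2 arrays. For miR-223-3p these were miR-720 (distance 0.09), miR-21-5p (0.19) and miR-574-5p (0.43). For miR-142-3p they were miR-15b-5p (0.08), miR-669n (0.25) and miR-2145_v16.0 (0.39), and for miR-142-5p let-7b-5p (0.07), miR-669b-5p (0.16) and miR-20b-5p (0.17). Their relative log2 ratios ran from -0.17 for miR-21-5p to 0.21 for miR-669n.

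The authors' deposited table holds log2 values of the same arrays. In it miR-223-3p stood at 6.33 with IL-6 and 6.45 without it. The 3p arm of miR-142 had 4.17 and 4.23, and the 5p arm 1.76 and 1.79. miR-223-5p, miR-511-3p and miR-511-5p all sat at the table's lowest value, -9.60 on both arrays, so the table shows nothing of the spread of probe signals described above for miR-511-5p.

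**Figure D4:**
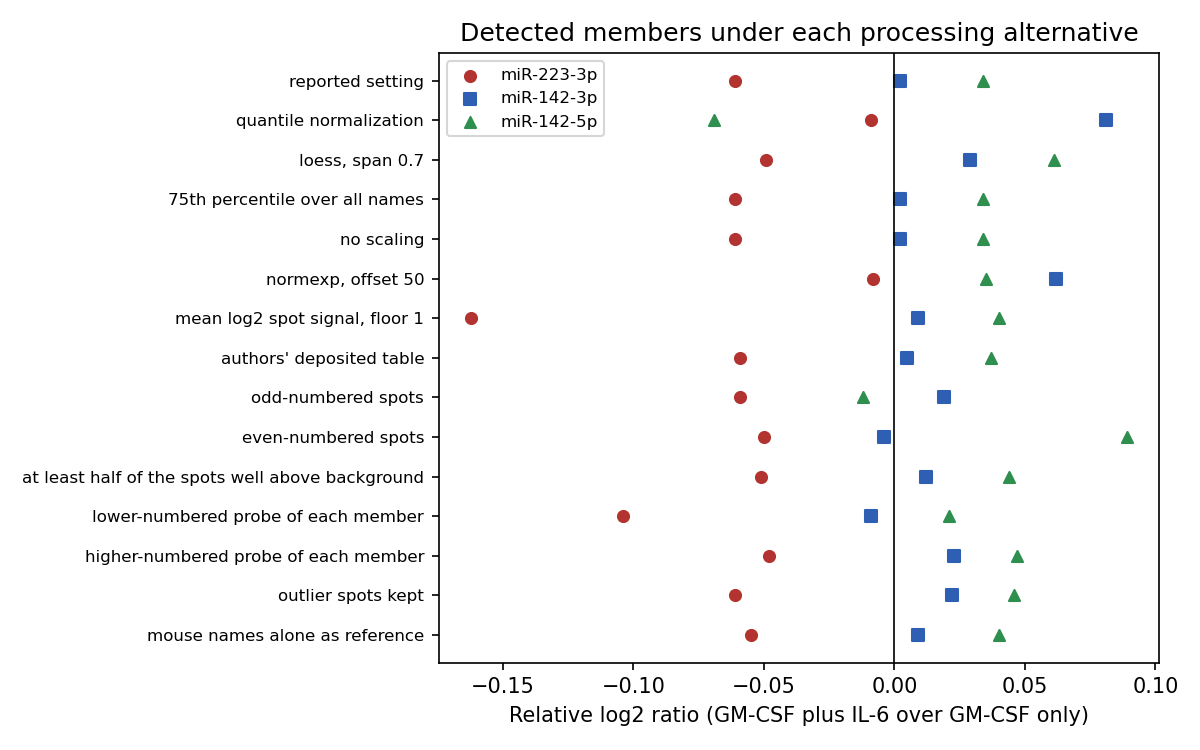
Relative log2 ratio of the culture with IL-6 over the culture without it (horizontal axis) for the 3 detected members under the reported setting and 14 alternatives (rows). miR-223-3p (red circles) lies below 0 in every row, from -0.162 to -0.008 over the alternatives, while miR-142-3p (blue squares) and miR-142-5p (green triangles) fall on both sides of 0. Some rows repeat the reported values or shift all members alike by construction, so the rows are not independent checks. The deposited error model gives miR-223-3p a log2 error of 0.162 in the reported setting.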

How the data were processed

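MicroRNA was measured in 1 culture per group on single-colour (Cy3) arrays. Per the file headers, the deposited intensities come from Agilent Feature Extraction 10.7.1.1, background-subtracted and spatially detrended, with no scaling between arrays, and the deposited flags call detection, outliers and saturation. A second file, the authors' deposited matrix of log2 values, was set against them. For the detected members its values equal the log2 summed signal minus 6.28 on each array, which fixes scale and direction, and the origin of that constant and any centring stay unknown. The column medians are -9.60 and -9.60. The labels name a cRNA amplification kit for mRNA arrays, and its use for these arrays is not given in the labels.

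The level of a name was the sum of its deposited total probe signals. Each total equals, within 0.01%, the mean of unflagged spots times the number of spots and 1 constant per array, and spot errors were computed from those spots. Levels were scaled by the 75th percentile of the names detected on both arrays, and the median log2 ratio was subtracted. No test was run, and a fixed rule of 2-fold took its place. The number of arrays limits the precision. Alternatives were quantile normalization, loess (span 0.7), the 75th percentile over all names, no scaling, normexp (offset 50), mean log2 spot signal (floor 1), the authors' table, odd or even spots, and stricter detection. Single probes, outlier spots kept and mouse names alone were added after seeing the data. The members and lists were chosen with earlier results of these data known. Text names the members, the 3 nearest names by level, the listed myeloid miRNAs and the brightest marker of each list. Names are the array's and can be old. miR-106a-5p and miR-486-5p are not analysed here, and miR-1-3p was read as miR-1a-3p. Python 3.11.15 (numpy 2.4.6, pandas 2.3.3, statsmodels 0.14.6, matplotlib 3.10.9) and R 4.3.3 (limma 3.58.1) were used, and the functions were tested on simulated data.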

Additional observations from a re-analysis of the deposited data

How the results depend on the processing

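The median relative log2 ratio of the 3 detected members was 0.002 and ran from -0.012 (odd-numbered spots) to 0.035 (normexp) under 14 alternatives. Of the single members' values under these alternatives, 9 moved by more than the 95% interval of the spot error. In any setting that gives a count, 0 of 3 members passed 2-fold. The 1.5-fold count, also 0 of 3, was made in the reported setting alone. miR-223-3p was below 0 in 14 of 14, from -0.162 (mean log2 spot signal) to -0.008 (normexp). The lowest value follows from the construction of that alternative, which weights probes by their unflagged spots, 18 and 19 with IL-6 against 15 and 20 without it. miR-142-3p was above 0 in 12 of 14 (-0.009 to 0.081) and miR-142-5p in 12 of 14 (-0.069 to 0.089, the ends being quantile normalization and even-numbered spots), and the cause was not tested. The 75th percentile over all names and no scaling repeat the relative values by construction. The median of all names moved between -0.15 and 0.12. Levels after normexp are on another scale and are not given. No paired analysis was possible because each group has 1 array. Signal over background limits miR-223-5p and both arms of miR-511.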
